A study of Mus musculus with 5 samples.

Results

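The fragments described here are pieces of the genome that 2 clones of mouse CD8+ T cells carried in opposite and nearly complete DNA methylation states. A fragment is a stretch between 2 neighbouring cut sites of the restriction enzyme MspI, and its level is the share of methylated calls among all CpG calls of a library. Members were selected on the measured levels of both clone libraries. They had to have 10 or more molecules with a call in each of the 3 libraries, a level of at least 90% in one clone and at most 10% in the other, in either order. The rule put no condition on the level in the non-clonal population. Of 161264 fragments with that coverage, 27 met it (0.0167%). Because the clone levels chose the members, the difference between the clones is a description and carries no test.

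The series profiled primary CD8+ T cells of C57BL/6 mice. Naive T cells taken from spleen were kept in culture with IL2, and single CD8+ cells were then sorted and grown up. Clone 1 and clone 2 each descend from 1 founder cell, with 15 labelled cell divisions and 2 replicates. The population sample is the non-clonal culture, with 1 replicate. No group carries a transgene or deletion per the labels, and no age of the animals is stated there. The replicates of a clone are pooled in 1 deposited file, so every group is 1 set of molecules, called a library here. No value has a spread between replicates. Intervals on shares of molecules cover counting error between molecules alone. Those of medians and of shares of fragments take each fragment as an independent unit, and none covers spread between replicates. The files hold methylation calls by fragment number, without gene names, so CD8+ identity could not be checked on marker genes. The chromosome, the coordinates and the gene context of the fragments were not analysed here.

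CpG methylation is the addition of a methyl group to the cytosine of a CG pair. After each DNA replication the maintenance methyltransferase copies it from the old strand to the new one, so a state held by a founder cell can pass to its descendants. Other enzymes add or remove methylation without that template. In a mixed culture the level averages over cells and both chromosome copies, whereas a clone starts from the states of 1 cell. A fragment at 0% or 100% in a clone therefore has the same state on nearly all sampled copies.

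In 13 members clone 1 was methylated and clone 2 unmethylated, and in 14 members the order was reversed. The methylated clone had 1332 methylated among 1391 calls over all members (95.8%), and the unmethylated clone 50 among 1267 (3.95%). The level was exactly 100% in the methylated clone at 9 members and exactly 0% in the unmethylated clone at 10. Fragments 365840, 1517126 and 1539790 had both, and all 3 were methylated in clone 2. Members methylated in clone 1 made up 48.1% at 90% and 10%, and 46.7% of 137 fragments at 80% and 20%. The share was 14.3% of 7 fragments at 95% and 5%, and none of the 3 at 100% and 0%. These last shares rest on too few fragments to show that the balance depends on the thresholds. Each of the 10 zeros rests on 11 to 30 molecules, and a count of 0 there still allows levels of up to 10.0% to 27.3%. The median member had 19, 23 and 27 molecules in the population and the clones 1 and 2, against 23, 29 and 23 for the median covered fragment.

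**Figure D1:**
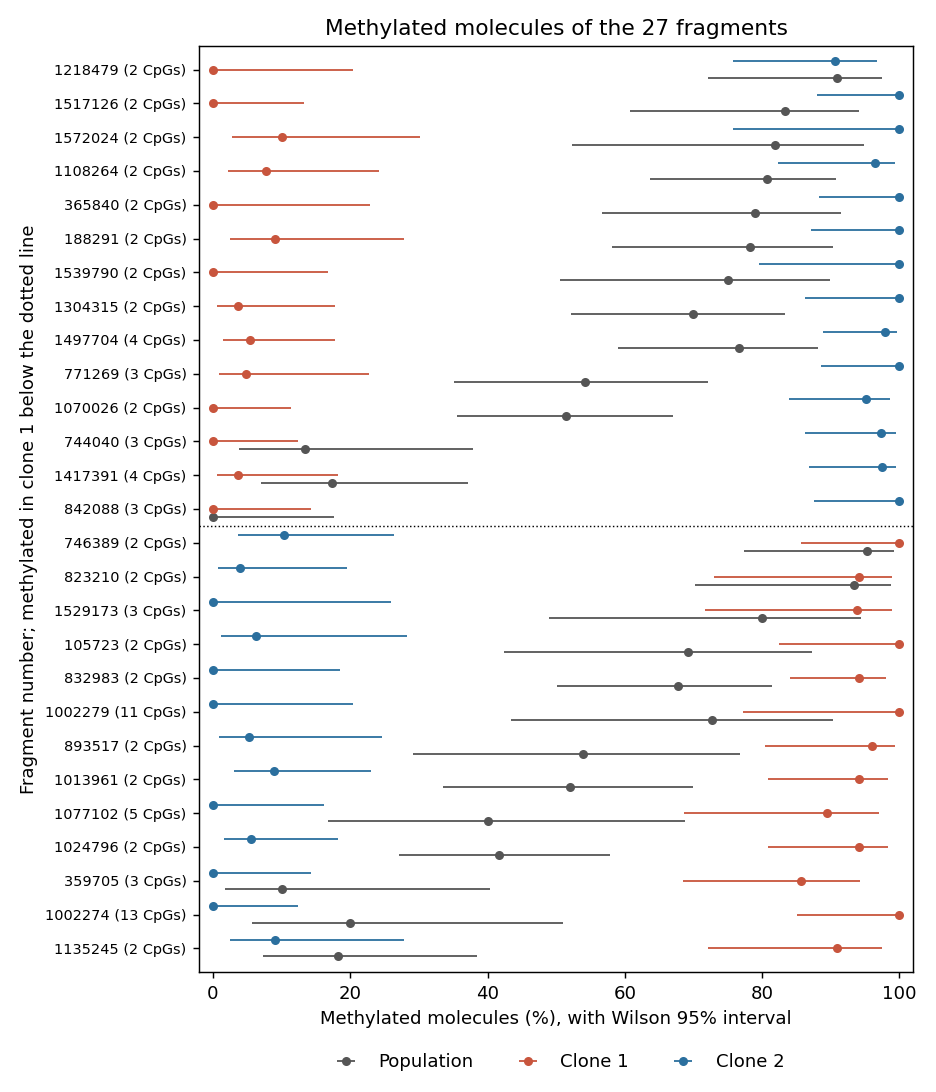
Share of methylated molecules (more than 50% of observed CpGs methylated) for each of the 27 members, on the x axis in percent, in the population, clone 1 and clone 2. Bars are Wilson 95% intervals, and fragments are ordered by population level within each direction. The 2 clones sit at opposite ends in every row, and the population lies anywhere from beside one clone to beside the other.

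Most members carried few CpGs. Fragments with 2 CpGs, both of them at the cut sites, made up 17 of the 27 (63.0%), against 12.6% of covered fragments. Another 5 members had 3 CpGs, 2 had 4 CpGs, and single members had 5, 11 and 13. The median was 2 CpGs for members and 5 for covered fragments. A molecule of a fragment with 2 CpGs yielded a median of 1.00 calls in clone 1, and a molecule of a fragment with 10 or more CpGs 9.85. The rate of members per 100000 covered fragments was 83.4 at 2 CpGs, 18.4 at 3 and 8.29 at 4. It was 1.64 at 5 to 9 CpGs and 6.98 at 10 or more, but these classes held only 1 and 2 members. The part of the number of calls per molecule in these rates was not tested. If a level is instead taken as the share of molecules with a methylated majority, 157 fragments qualify, 24 of the 27 among them.

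The 2 members with the most CpGs, fragments 1002274 and 1002279, lie 5 numbers apart and shared their direction. On fragment 1002274, with 13 CpGs, clone 1 had 246 methylated calls of 253 (97.2%), clone 2 had 2 of 294 (0.680%) and the population 27 of 121 (22.3%). The difference spanned the whole fragment. In clone 1 each of the 13 CpGs stood at 90.9% or more, and in clone 2 each stood at 4.00% or less. Whole molecules were equally clear. Among clone 1 molecules 16 of 22 had every observed CpG methylated and none had every CpG unmethylated, while 25 of 27 clone 2 molecules had no methylated CpG. The 10 population molecules fell into 1 fully methylated, 6 fully unmethylated and 3 mixed.

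Fragment 1002279, with 11 CpGs, had 100 methylated calls of 107 in clone 1 (93.5%), 12 of 141 in clone 2 (8.51%) and 64 of 98 in the population (65.3%). One CpG departed from the rest. At CpG 9, counted from the fragment's first CpG, clone 2 had 8 methylated calls of 14 (57.1%), although its CpGs 8 and 10 had 0 of 13 and 0 of 14. That CpG holds 8 of the 12 methylated calls clone 2 had on this fragment, and the population was at 6 of 7 there. In clone 1, CpGs 4, 10 and 11 stood at 81.8%, 72.7% and 71.4%, and the other 8 CpGs at 100%.

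Fragment 1077102, with 5 CpGs, was methylated in clone 1 (67 of 72 calls, 93.1%) and unmethylated in clone 2 (3 of 76, 3.95%). Its population library was uneven between CpGs, with 6 of 10 calls methylated at CpG 2, 1 of 10 at CpG 3 and 6 of 8 at CpG 4. The same CpGs stood at 94.7%, 84.2% and 100% in clone 1 and at 5.00%, 0% and 10.5% in clone 2. Among these 3, CpG 3 was the lowest in every library, by wide steps in the population and by small ones in the clones. CpGs 1 and 5 had fewer calls. The population had 4 of 5 and 0 of 5 methylated there. Clone 1 had 5 of 6 and 13 of 13, and clone 2 had 0 of 11 and 0 of 6. CpG 5 was thus lower than CpG 3 in the population, and CpG 1 slightly lower in clone 1. Of 10 population molecules 6 were mixed.

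Fragments 1417391 and 1497704, with 4 CpGs each, were methylated in clone 2. Fragment 1417391 had 1 of 72 calls methylated in clone 1 (1.39%), 99 of 107 in clone 2 (92.5%) and 15 of 62 in the population (24.2%). Its population level went from 1 of 10 at CpG 1 to 7 of 10 at CpG 4. Fragment 1497704, the deepest of these, had 9 of 99 in clone 1 (9.09%), 130 of 133 in clone 2 (97.7%) and 60 of 86 in the population (69.8%). Its methylated calls in clone 1 gathered at the ends, with 4 of 17 at CpG 1 and 3 of 16 at CpG 4, and 1 of 35 and 1 of 31 at the CpGs between. The lines by CpG show these profiles side by side.

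**Figure D2:**
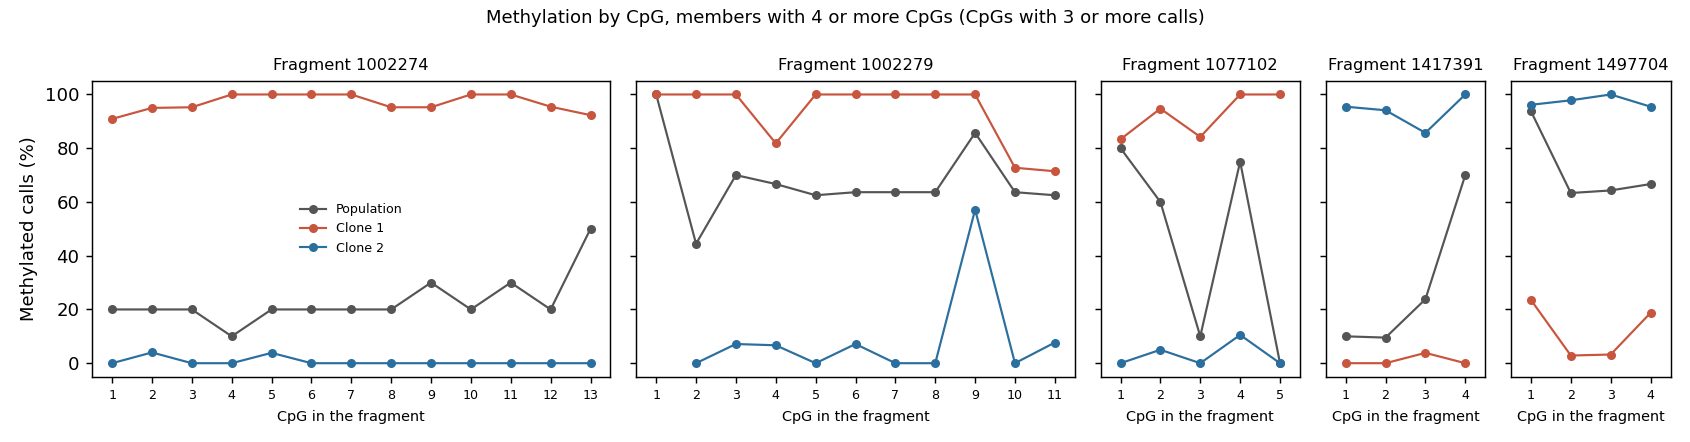
Methylated calls in percent (y axis) at each CpG (x axis, counted from the fragment's first CpG) of the 5 members with 4 or more CpGs, for the population, clone 1 and clone 2. CpGs with fewer than 3 calls in a library are left out, and points are single libraries, in which a clone's replicates are pooled. The clones stay apart along the full length, except at CpG 9 of fragment 1002279, where clone 2 reaches 57.1%.

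Of the 5 members with 3 CpGs, 4 were read on both strands. Fragment 744040 had 0 of 48 methylated calls in clone 1 and 68 of 69 in clone 2, while 8 of 29 population calls were methylated (27.6%). At fragment 842088 these values were 0 of 42, 59 of 64 and 7 of 34 (20.6%). In both, the population was nearer to the unmethylated clone. Fragment 771269 had 3 of 42 and 55 of 55, with 31 of 45 in the population (68.9%), and 2 of those 3 calls sit on 1 fully methylated molecule of clone 1. In the opposite order, fragment 359705 had 47 of 52 in clone 1, 0 of 43 in clone 2 and 8 of 20 in the population (40%). CpG 3 held 3 of its 5 unmethylated calls in clone 1. Fragment 1529173 was read at its middle CpG alone, on plus molecules, with 15 of 16 in clone 1, 0 of 11 in clone 2 and 8 of 10 in the population.

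Molecules wholly in the other state were rare in the clones. Over the 9 members with 3 or more CpGs and molecules with at least 2 calls, 1 of 241 molecules of the methylated clone was fully unmethylated (0.415%) and 1 of 200 molecules of the unmethylated clone was fully methylated (0.50%). Mixed molecules made up 13.3% and 10.5%. These values describe libraries that the rule selected for being near complete.

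Plus and minus molecules of a fragment with 2 CpGs read different CpGs, since each strand's far end is rebuilt by the fill-in reaction and is nearly always unread. Agreement of both strands there means agreement of 2 separate CpGs on separate molecules. Counts by strand include the few calls at rebuilt ends. Fragment 1517126 was the clearest, with 0 of 12 plus and 0 of 13 minus calls methylated in clone 1 against 17 of 17 and 11 of 11 in clone 2. The population had 6 of 7 and 9 of 11. Fragment 1070026 had 0 of 9 and 0 of 21 in clone 1, and 20 of 20 and 19 of 21 in clone 2. The population was even, at 9 of 17 and 9 of 18. Fragment 1024796, methylated in clone 1, had 10 of 11 and 22 of 23 there, 0 of 7 and 2 of 29 in clone 2, with 7 of 15 and 8 of 21 among population calls. Fragment 893517 had 10 of 11 and 14 of 14 in clone 1, 1 of 11 and 0 of 8 in clone 2, while the population had 4 of 8 and 3 of 5. In these 4 fragments both ends had the same state within each clone.

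Other members with 2 CpGs had a complete difference at one end and a smaller one at the other. Fragment 188291 had 0 of 15 minus calls methylated in clone 1 against 18 of 18 in clone 2, but 2 of 7 against 8 of 8 on the plus strand. Fragment 746389 had 13 of 13 plus calls in clone 1 against 1 of 25 in clone 2, and 10 of 10 against 2 of 5 on the minus strand. Fragment 1135245 had 15 of 16 against 0 of 14 on the plus strand and 6 of 7 against 2 of 9 on the minus strand. Among the 15 members with at least 5 molecules on both strands in both clones, the difference was 80 points or more on both strands in 12, and these 3 were the others. Their smallest strand difference was 60 points, still in the member's direction.

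The remaining 10 members with 2 CpGs had under 5 molecules on a strand of a clone, so their state rests mainly on 1 CpG. Fragment 105723 had 17 of 17 minus calls methylated in clone 1 and 0 of 15 in clone 2, while its few plus calls were methylated in every library (1 of 1, 1 of 1 and 3 of 3). Fragment 823210 likewise had 15 of 15 and 0 of 23 on the minus strand, and 2 of 3 and 1 of 3 on the plus strand. At its CpG 1 alone the counts were 2 of 2 and 1 of 2. At fragment 1013961 the plus end went from 24 of 26 in clone 1 to 0 of 30 in clone 2 and the minus end from 8 of 8 to 3 of 4. The population had 4 of 16 and 9 of 9 at these ends. Here 1 CpG differed and the calls at the other gave no sign of it, at 4 clone 2 molecules. Fragment 832983 had 35 of 36 and 0 of 14 on the plus strand.

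Members of this kind that were methylated in clone 2 had similarly sharp values at their deeper end. Fragment 1304315 had 0 of 25 plus calls in clone 1 and 19 of 19 in clone 2. Fragment 1108264 had 1 of 23 and 23 of 24 on the minus strand, and fragment 1218479 had 0 of 13 and 18 of 21. Fragment 365840 had 0 of 9 and 21 of 21 on the plus strand, with 0 of 4 and 8 of 8 on the minus strand. Fragments 1539790 and 1572024 were read on the plus strand almost alone, with 0 of 19 and 15 of 15, and 1 of 19 and 12 of 12. Across all 27 members no strand with a call in both clones went against the member's direction. The plus strand of fragment 105723 had no difference, at 1 of 1 in both clones. The rule pools the calls of both strands, so this follows in large part from the selection.

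If fragment numbers follow genome order, the last CpG of a fragment and the first CpG of the next number are the same cut site read on other molecules. At 10515 such pairs in the population the 2 readings differed by a median of 5.45 points (Pearson r 0.961 across sites, a description), against 7.27 points and 0.764 for numbers 2 apart. Clone 1 and clone 2 gave r of 0.972 and 0.967 at adjacent numbers. The numbers were taken as genome order on this basis, and the cut sites of members could be read a second time on neighbouring fragments whose molecules the rule did not use.

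With at least 5 molecules in both clones, 4 end sites of 4 members had such a second reading. All 4 lay in the member's direction. The first site of fragment 1024796, read on fragment 1024795, was methylated on 21 of 22 molecules in clone 1, 1 of 16 in clone 2 and 7 of 14 in the population. The last site of fragment 842088 had 0 of 5 in clone 1, 12 of 12 in clone 2 and 3 of 11 in the population. The first site of fragment 1135245 had 16 of 17, 3 of 11 and 2 of 9 in the same libraries. That of fragment 1497704 had 3 of 9, 10 of 10 and 2 of 5. Differences between the clones ran from 66.7 to 100 points. The direction was thus seen again on separate molecules of the same libraries, while the unmethylated state was not complete at the sites of fragments 1135245 (27.3% in clone 2) and 1497704 (33.3% in clone 1).

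The stretch around fragments 1002274 and 1002279 was opposite between the clones over 6 fragment numbers. Fragment 1002276, with 8 CpGs, had 1 unmethylated call among 126 in clone 1 (99.2% methylated), 11 of 91 in clone 2 (12.1%) and 46 of 133 in the population (34.6%). It missed the rule by its clone 2 level. Fragment 1002277 had 10 of 11, 0 of 6 and 3 of 11, and fragment 1002278 had 22 of 22, 0 of 5 and 6 of 10 in the same order. All 5 measured fragments of the stretch had the same direction. Before it, fragments 1002269 to 1002271 stood at 91.0% to 100% in clone 1, 93.1% to 93.8% in clone 2 and 86.4% to 92.2% in the population. After it, fragment 1002284 stood at 89.5%, 92.3% and 94.9%. The population level within the stretch went from 22.3% at its start to 65.3% at its end.

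**Figure D3:**
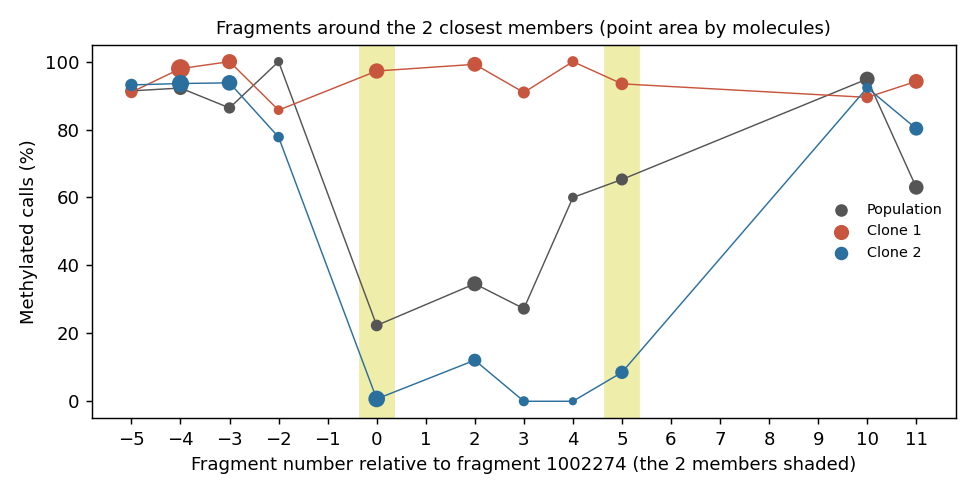
Methylated calls in percent (y axis) in the population, clone 1 and clone 2 by fragment number relative to fragment 1002274 (x axis), with point area by number of molecules and the 2 members shaded. Fragments without molecules in all 3 libraries are left out. From 0 to 5 clone 1 stays at 90.9% or more and clone 2 at 12.1% or less, while all 3 libraries are at 77.8% or more on fragments -5 to -2.

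No other members were neighbours. The next closest, fragments 744040 and 746389, lay 2349 numbers apart and had opposite directions. Non-member neighbours within 10 numbers could be measured, at 10 molecules in both clones, for 24 of the 27 members. There were 63 such fragments, forming 67 pairs with members. At the 4 adjacent ones the clone difference in the member's direction had a mean of 43.5 points and ran from 26.4 to 50.3. Each adjacent fragment holds 1 cut-site CpG of its member, so part of this difference comes with the selection. Without the calls at that CpG the mean was 34.1 points and the range 16.6, at fragment 1024795, to 45.0, at fragment 842089. Distances of 2 to 3 gave a median of 2.33 points over 18 pairs, with 5 pairs at 20 points or more, and distances of 6 to 10 gave 0.720 points over 29 pairs, with none. One neighbour, 9 numbers from fragment 1013961, was past 20 points in the opposite direction. Across all 184187 fragments measured in both clones, 8.92% differed by 20 points or more in either direction, and the median absolute difference was 3.33 points.

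The 4 adjacent fragments were partly rather than completely different. Fragment 842089, next to fragment 842088, stood at 32.7% in clone 1 and 83.0% in clone 2, and fragment 842086, 2 numbers before it, at 29.8% and 80%. Fragments on both sides of fragment 842088 thus had its direction at a lower contrast. Fragment 1497703 stood at 25% and 73.8%, next to a member methylated in clone 2. On the side of members methylated in clone 1, fragment 1135244 stood at 72.2% and 23.8%, and fragment 1024795 at 57.6% and 31.2%. Without the shared CpG, fragment 1135244 stood at 52.6% and 20%, and fragment 1024795 at 51.5% and 34.9%. In the plot of clone differences by distance, each difference of 20 points or more in the member's direction lies within 3 numbers of a member, except at fragment 744045, which is 5 numbers from fragment 744040 and stood at 34.5% in clone 1 and 62.0% in clone 2.

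**Figure D4:**
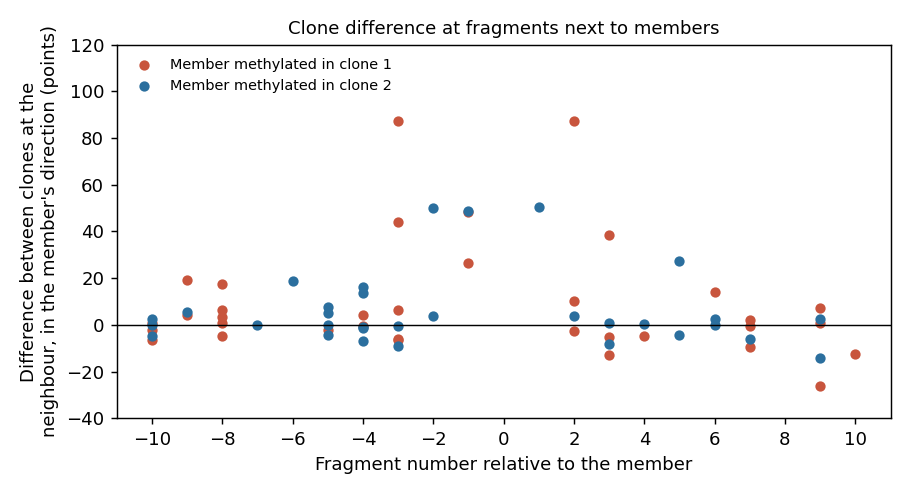
Difference in level between the clones at fragments near members, in percentage points in the member's direction (y axis), by fragment number relative to the member (x axis). Each point is a non-member fragment with 10 or more molecules in both clones, coloured by the direction of the member, and a fragment near 2 members is drawn for each. The 4 points at -1 and 1 include the cut site shared with the member and lie between 26.4 and 50.3, while those beyond 5 numbers lie between -26.1 and 19.4.

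The population, whose level the rule did not use, was mostly intermediate at members. It stood at 20 to 80% in 20 of 27 members (74.1%), against 15.1% of all covered fragments. The median was 68.9% (exact 95% interval of the median 44.7 to 78.9), with a lowest value of 18.2% and a highest of 95.2%, while the median of all covered fragments was 88.8%. All 10 members with 3 or more CpGs were intermediate, from 20.6% to 80%. Members with 2 CpGs held the other 7. Of these, 6 were above 80% and 1, fragment 1135245, was below 20%. Members methylated in clone 1 had a median of 53.8% and those methylated in clone 2 a median of 72.5%, with overlapping intervals of 40 to 80 and 27.6 to 81.8.

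A few members set 1 clone apart from both other libraries. Fragment 746389 had 20 of 21 methylated calls in the population (95.2%) and 23 of 23 in clone 1, but 3 of 30 in clone 2. Fragment 823210 had 14 of 15 (93.3%) and 17 of 18, but 1 of 26. At fragment 1218479 clone 1 stood apart with 0 of 15, while clone 2 had 29 of 32 and the population 20 of 22 (90.9%). Fragment 1135245 was the reverse case, with 4 of 22 in the population (18.2%), 2 of 23 in clone 2 and 21 of 23 in clone 1. In no member was the population at 10% or less. The step from the population down to the unmethylated clone had a median of 61.7 points and was the larger one in 19 members, and the step up to the methylated clone had a median of 30.0 points.

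Complete states were far more often the same in both clones than opposite. Of 97517 fragments at 90% or more or at 10% or less in both clones, 68851 were methylated in both, 28639 unmethylated in both and 27 opposite. Restricting this to the 1622 with an intermediate population left 1494 methylated in both, 108 unmethylated in both and 20 opposite (1.23%, Wilson 95% interval 0.80 to 1.90). Where the population stood at 40 to 60%, 6 of 99 were opposite (6.06%, 2.81 to 12.6), against 4 of 114 at 20 to 40% (3.51%, 1.37 to 8.68) and 10 of 1409 at 60 to 80% (0.710%, 0.386 to 1.30). The intervals of the first and second classes overlap, and the last lies below both. Over 80% in the population 6 of 67361 were opposite, and under 20% 1 of 28534. Within the class of 40 to 60%, 83 fragments were methylated in both clones and 10 unmethylated in both.

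**Figure D5:**
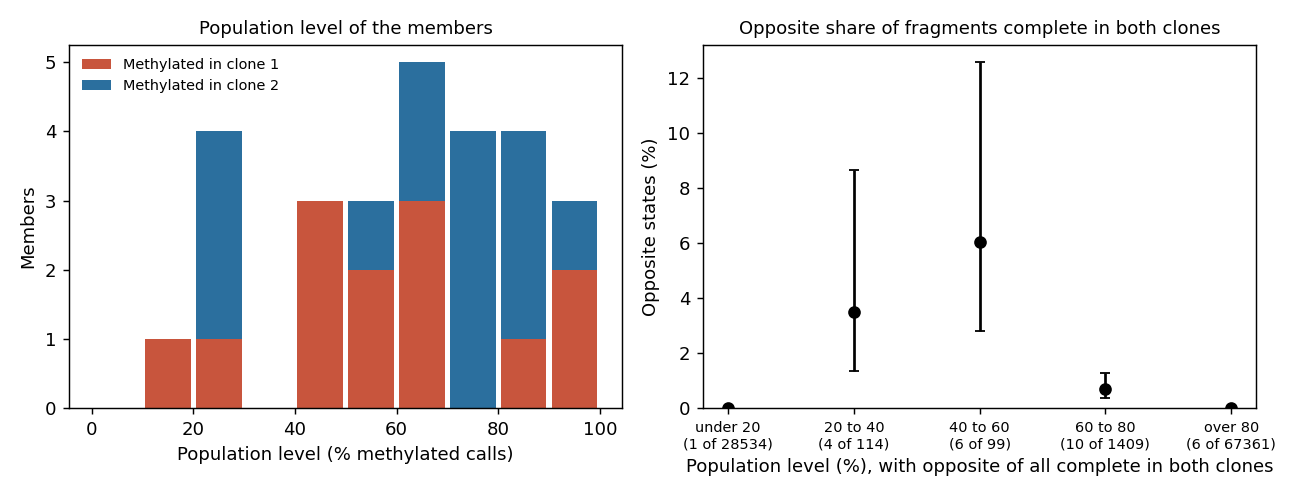
Left, number of members (y axis) by population level in percent (x axis), by direction. Right, opposite states as a percentage of all fragments complete in both clones (y axis) by class of population level (x axis), with counts under each class and Wilson 95% intervals. The share reaches 6.06% at 40 to 60% in the population and is 0.710% or less at 60% and above.

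A test of the population against each clone was run over all 161264 covered fragments, by Fisher's exact test on methylated and other molecules, two-sided, with Benjamini-Hochberg adjustment. Fragments past an adjusted p of 0.05 that also differed by 20 points or more were called. Calls made up 1.79% of fragments against clone 1 and 1.44% against clone 2. Of the members, 16 were called against clone 1 and 12 against clone 2. The rule fixed the clone side of these contrasts, so the counts and the members' p-values below are descriptions and not test evidence. Against clone 1, 5 members were called higher in the clone (0.965% of all fragments) and 11 lower (0.827%). Against clone 2 these were 5 (0.897%) and 7 (0.540%).

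In 12 members clone 1 was called and clone 2 was not, in 8 the reverse, in 4 both were called and in 3 neither. Of all covered fragments, 1.79% were called against clone 1 and 1.44% against clone 2. Shares of all fragments by combination are not given here, so these counts only describe the members. A missing call does not show that a clone was like the population. Fragment 1304315, not called against clone 2, had 21 of 30 methylated molecules in the population and 24 of 24 there, with an adjusted p of 0.127 by Fisher's exact test. Fragment 832983, not called against clone 1, had 21 of 31 and 48 of 51, with an adjusted p of 0.123 by the same test. The 4 with calls against both, fragments 771269, 1013961, 1024796 and 1070026, had population levels of 41.7% to 68.9% and 24 to 36 population molecules. Fragment 1070026 had 18 of 35 methylated molecules in the population, 0 of 30 in clone 1 and 39 of 41 in clone 2, with adjusted p of 0.000542 and 0.00283 by Fisher's exact test. The 3 called against neither, fragments 105723, 893517 and 1077102, had 10 to 13 population molecules. Fragment 1077102 had 4 of 10 methylated molecules there, with adjusted p of 0.229 and 0.232 in Fisher's exact test against 17 of 19 in clone 1 and 0 of 20 in clone 2. At that depth the difference of 49.5 points against clone 1 was not called.

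By level, the widest difference between the population and a clone was 90.9 points, at fragment 1218479, followed by 89.5 at fragment 823210. By the share of molecules with a methylated majority, fragment 842088 differed by 100 points, although by level the difference was 71.6. Of its 16 population molecules with at least 2 calls, 7 were mixed. None of its 18 population molecules and none of 23 in clone 1 had a methylated majority, against 27 of 27 in clone 2, an adjusted p of 1.04e-08 by Fisher's exact test. The same test gave an adjusted p of 3.04e-07 at fragment 1417391, with 4 of 23 population molecules against 38 of 39 in clone 2. It gave 6.93e-06 at fragment 744040, with 2 of 15 against 36 of 37. The p-values compare single libraries and not conditions, and the rule fixed their clone side, so they are descriptions. Fragment 1497704, lower in clone 1 than in the population, had an adjusted p of 1.84e-06 by Fisher's exact test. There, 23 of 30 population molecules had a methylated majority, against 2 of 37 in clone 1.

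Population molecules of the CpG-richer members were read for whether they carried 1 state throughout. Over the 5 members with 4 or more CpGs, 82 population molecules with at least 2 calls held 24 fully methylated, 28 fully unmethylated and 30 mixed ones (36.6% mixed). Other covered fragments with 4 or more CpGs in the same 10-point classes of population level had 63.2% mixed. The comparison depended on the processing. The members' share was above that of the comparison fragments with the level taken by molecules (57.9% over 97 members against 26.2%) and at thresholds of 80% and 20% (42.1% over 47 members against 33.6%), settings in which the pooled classes took in 113517 and 65200 fragments. It was level with it on plus molecules (56.5% over 2 members against 57.0%). In every other alternative with a value it was below. Examples are 2 or more reads (10.0% in 1 member against 48.9%) and minus molecules (48.9% over 7 members against 64.2%). Set beside fragments of its own class of CpG number and level, each of the 5 had a mixed share below the median. Fragment 1002274 had 30.0% against a median of 69.8% over 536 fragments, fragment 1002279 had 27.3% against 78.6% over 193, and fragment 1497704 had 30.0% against 58.3% over 843. All 3 were below the lower quartile of their comparison set, at 52.0%, 66.7% and 48.6%. Fragments 1077102 and 1417391 had 60% against 72.2% and 42.9% against 47.1%, within the quartiles or at their edge.

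The members with 3 CpGs did not share this. Fragments 359705 and 842088 had 60% and 43.8% mixed population molecules, above their medians of 46.4% and 34.8%. Fragment 744040 had 35.7% against 34.8%, and fragment 771269 had 38.1% against 46.2%. These shares rest on 10 to 30 molecules a fragment and were not tested.

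Clone 1 had 1.20 times as many molecules as clone 2 at the median covered fragment. The median ratio was 1.00 at members methylated in clone 1 and 0.816 at members methylated in clone 2. Outside the central 95% of all covered fragments lay 4 of the 27 members, against 4.96% of covered fragments. Of these 4, 2 were methylated in clone 2 and had a low ratio, and 2 were methylated in clone 1, 1 with a low and 1 with a high ratio. Both medians are below that of all fragments, and their part in the members' states was not tested.

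The thresholds passed through a continuous range of values. The members nearest to 90% were fragment 359705 at 90.4% and fragment 1218479 at 90.6%, and just outside lay fragment 773789, with 8 CpGs, at 89.4% in clone 2 and 3.68% in clone 1. Nearest to 10% were fragments 746389 and 1572024, both at 10.0%, and just outside lay fragment 1371712, with 10.7% in clone 1 and 95.3% in clone 2. At thresholds of 80% and 20% the number of fragments rose to 137.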

How the data were processed

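The 3 deposited files have a line for each fragment number, strand and 6-base tag, and each line carries the CpG calls as a string (0, 1 or not observed). The authors' deposited counts of reads behind each tag and a last value of unstated meaning follow it, and neither is normalized. Bismark and build mm9 are named per the submitters' processing notes, while the version, the filters and the pooling of replicates were not given in the sources used here. The libraries list 8463942 (population), 11969176 (clone 1) and 8977287 (clone 2) molecules, of which 5588357, 7013054 and 5567534 carry a call. Each tag on a strand counted as 1 molecule, and separate molecules that share a tag are merged, which limits counts on deep fragments. Intervals are 95% Wilson intervals, exact ones for medians, and a count of 0 was bounded by 3 counts.

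Levels, tests and counts were computed with Python 3.11.15, numpy 2.4.6, scipy 1.17.1 and numba 0.67.0. The Fisher test was tested on simulated data. Members and lists were chosen with earlier results of these data known. The naming rule took members with at least 4 CpGs by molecules in their least covered library and by CpG number, and it was extended to all 27 members after their values were seen. Alternatives changed the molecule minimum, the thresholds, the level, the molecules and the strands. Leaving out replicates could not be run, because each clone's replicates share 1 file.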

Additional observations from a re-analysis of the deposited data

How the results depend on the processing

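The number of members, 27, depended on the rule's settings. It was 49, 11 and 3 with minimums of 5, 20 and 30 molecules, 137, 7 and 3 with thresholds of 80% and 20%, 95% and 5%, and 100% and 0%, and 157 with the level taken as the share of methylated molecules. With molecules of 2 or more reads alone it was 9, at 37119 covered fragments. Only 2 of the 27 had enough such molecules in every library, and both stayed members. Plus molecules alone and minus molecules alone gave 62 each, with 10 and 9 of the 27, fragments with at least 4 CpGs gave 5, and at least 5 molecules on each strand in each clone gave 15. It was 25 with the same tag on both strands counted once, 26 without calls at filled-in ends and 28 without molecules whose last value is above 0. The median population level stayed within its interval in all 15 alternatives. The share of members methylated in clone 1, 48.1%, was 14.3% and 0% at the thresholds of 95% and 5% and of 100% and 0%. Those settings held 7 and 3 fragments, and the share was 46.7% at 80% and 20%. The share at 20 to 80% in the population, 74.1%, was 100% with a minimum of 30 molecules and with at least 4 CpGs. Mixed population molecules, 36.6%, were 57.9% with the level by molecules, 10.0% with 2 or more reads, 56.5% on plus molecules and 48.9% on minus molecules. At thresholds of 100% and 0% no member had 4 CpGs, so that share has no value.

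Fragments called between the population and clone 1, 2890, were 743 at 30 molecules, 5295 with 1 CpG per fragment and 41 with 2 or more reads. Against clone 2, 2317 became 684, 3942 and 120. With 1 CpG per fragment 42.4% and 50.7% of calls were higher in the clone, against 53.8% and 62.4%. At 30 molecules clone 1 had 45.0% higher, and with 2 or more reads 43.9%. The mean neighbour difference, 7.84 points within 10 numbers, was 43.5 at adjacent numbers, 20.7 within 3, and, without the shared cut site, 7.28 within 10 and 34.1 at adjacent numbers. The list is confined to covered fragments. Of 1594125 fragment numbers, 161264 had 10 molecules in every library, and why the others fell short was not tested. The cause of these changes was not tested beyond the number of fragments left. No paired analysis was possible because each clone's 2 replicates share 1 deposited file. The settings on filled-in ends, last values, molecules on each strand and the shared cut site were chosen after seeing the data.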

Other observations

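At thresholds of 80% and 20%, 137 fragments were in opposite states, 64 methylated in clone 1 and 73 in clone 2. Of these, 53 had 2 CpGs, 37 had 3, 36 had 4 to 9 and 11 had 10 or more. The population stood at 20 to 80% in 104 of them, under 20% in 9 and over 80% in 24. The wider class held 3 pairs of adjacent fragment numbers and 5 pairs within 100 numbers, and both fragments of each pair had the same direction. Adjacent fragments share a cut-site CpG, so part of their agreement is the same CpG read again. The pairs that were not adjacent came from the 1 stretch of fragments 1002274, 1002276 and 1002279 described above.

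Among the 11 with 10 or more CpGs, 8 were methylated in clone 1. Fragment 418992, with 14 CpGs, stood at 80.1% in clone 1, at 0% in clone 2 and at 1.41% in the population. Fragment 553853, with 12 CpGs, stood at 80.8%, 1.09% and 11.2% in the same order. Fragment 1199547, with 13 CpGs, stood at 13.6%, 91.7% and 10.9%, and fragment 1428557, with 15 CpGs, at 0.526%, 82.4% and 20.4%. Fragment 874680, with 10 CpGs, was the one of the 11 with a population level over 80%, at 81.7%, with 83.7% in clone 1 and 14.3% in clone 2. These fragments were named after their values were seen.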
